A study of Sus scrofa with 12 samples.

Results

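The genes described here encode voltage-gated calcium, sodium and potassium channels, their auxiliary subunits, and transient receptor potential (TRP) channels. The potassium genes include channels that are not gated by voltage as their main stimulus, namely 15 inward rectifiers, 15 tandem-pore leak channels and 7 calcium- or sodium-activated pores. Their m6A peaks were compared in boar sperm before and after freezing. Members were all RefSeq mRNA genes of the pig assembly Sscrofa11.1 whose symbol belongs to the CACNA1, CACNA2D, CACNB, SCN, KCN, TRPA, TRPC, TRPM or TRPV series, and KCNU1, the sperm potassium channel gene, was kept out of them. The rule used names only and no measured value, but the set was proposed with earlier results of these data known. Its numbers are therefore set beside those of all genes as descriptions. The rule gave 140 of 20678 mRNA genes.

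The study asked how cryopreservation bears on m6A, a methyl mark on adenosines inside mRNA, in spermatozoa of 3 Duroc boars. The fresh sperm (Fs) portion of an ejaculate was put into liquid nitrogen at once and kept for RNA extraction. Frozen-thawed sperm (Fts) came from the other portion of the same ejaculates, which had been cooled to 17 °C, taken up in a lactose extender with egg yolk, cooled to 4 °C, diluted in a further extender that held 6% glycerol and frozen in straws over liquid nitrogen. For each group, 3 IP samples (fragments pulled down with an m6A antibody) and 3 input samples were sequenced. Peaks of the 6 IP samples are used here, and the 6 input samples and the reads were not analysed here. By the study's methods each boar's ejaculates were divided between the groups, but the labels say neither whether a replicate is 1 boar nor whether ejaculates were pooled.

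Voltage-gated calcium, sodium and potassium channels open when the membrane potential moves and let mainly 1 kind of cation pass through the pore that their main subunits form. Smaller auxiliary subunits (alpha2delta and beta for calcium channels, KCNE, KCNAB, KCNIP and KCNMB proteins for potassium channels) set how many pores reach the membrane and how they gate. TRP channels are less selective cation channels that respond to temperature, osmotic strength, lipids or chemical ligands. In sperm, ion channels are known for their part in motility, capacitation and the acrosome reaction, although mature sperm transcribe little or no RNA and carry what remains from their development.

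The peak lists held 8015, 10378 and 10335 peaks in Fs1 to Fs3 and 9682, 11510 and 11982 in Fts1 to Fts3. The peak lists give no read numbers, so the depth behind a peak cannot be read from them. The study's own library statistics, not used here for any value, list fewer mapped reads for every Fts IP library than for any Fs IP library. The part of depth in the results below was not tested. Each peak carries the score that the peak caller MACS gave it against the input of the same sample, which is -10 times log10 of p. On this scale a score of 13.0 is a peak caller's p of 0.05, 20 is 0.01 and 50 is 1e-05. The lowest score in the lists, 3.02, is 0.499. In the 6 samples, 55.1%, 37.9% and 57.6% (Fs) and 45.6%, 55.4% and 54.1% (Fts) of the channel gene peaks had a p above 0.05. Many single peaks are therefore weak calls, and the scores are printed beside the genes named. A score grows with depth and with the amount of the RNA, so scores are set side by side here as descriptions. A peak that is missing from a list can mean less methylation, less RNA or fewer reads, and in such lists these cannot be told apart.

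A peak is a piece of mRNA, so the stretches on which the main differences rest are shown first. Each stretch is the part of the exon covered by the strongest peak of every sample with a peak there, read from Sscrofa11.1, on the transcript strand and 5′ to 3′. Capitals mark the 12 forms of the m6A consensus of 5 bases, RRACH, in which R stands for A or G and H for any base but G, and GGACT is the most typical form. All stretches lie in coding sequence. The first set had peaks in all 6 samples. CACNA1I (exon 10 of 38, chr5:8636242-8636378, minus strand) had higher scores in Fts. CACNA1B (exon 5 of 48, bases 193902 to 194054 of an unplaced scaffold, minus strand) and CACNA1A (exon 43 of 54, chr2:65847536-65847663, plus strand) had higher scores in Fs. TRPV4 (exon 2 of 16, chr14:41143265-41143499, plus strand) had overlapping scores.
CACNA1I: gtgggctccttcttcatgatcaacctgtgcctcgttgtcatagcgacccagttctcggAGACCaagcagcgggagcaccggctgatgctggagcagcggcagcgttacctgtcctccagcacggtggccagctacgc
CACNA1B: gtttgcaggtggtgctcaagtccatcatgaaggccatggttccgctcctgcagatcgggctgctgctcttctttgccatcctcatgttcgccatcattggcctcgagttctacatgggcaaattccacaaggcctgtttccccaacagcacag
CACNA1A: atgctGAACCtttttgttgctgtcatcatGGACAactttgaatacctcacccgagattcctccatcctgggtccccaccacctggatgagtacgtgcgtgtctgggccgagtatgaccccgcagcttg
TRPV4: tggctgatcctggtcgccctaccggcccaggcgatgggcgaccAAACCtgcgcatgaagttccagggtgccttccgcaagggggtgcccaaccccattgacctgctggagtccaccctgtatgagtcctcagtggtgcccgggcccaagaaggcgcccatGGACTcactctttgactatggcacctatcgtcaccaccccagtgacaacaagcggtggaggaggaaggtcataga

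The second set shows stretches with a peak in unequal numbers of Fs and Fts samples. KCNT2 (exon 17 of 29, bases 2180684 to 2180897 of another unplaced scaffold, minus strand) and TRPM4 (exon 4 of 24, chr6:54349123-54349303, plus strand) had a peak in 3 Fs and 0 Fts samples. KCNMA1 (exon 27 of 32, chr14:79383723-79383853, minus strand) had a peak in 3 Fts and 0 Fs samples. CACNA2D2 (exon 23 of 39, chr13:32855824-32855844, minus strand), CACNA1G (exon 34 of 38, chr12:26904742-26904885, plus strand) and KCNH1 (exon 9 of 12, chr9:132222015-132222036, plus strand) are shown for their large differences in score.
KCNT2: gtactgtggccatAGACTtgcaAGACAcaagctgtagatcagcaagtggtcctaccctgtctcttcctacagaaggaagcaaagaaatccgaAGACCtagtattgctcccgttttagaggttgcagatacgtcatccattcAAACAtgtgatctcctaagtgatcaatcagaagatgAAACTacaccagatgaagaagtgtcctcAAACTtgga
TRPM4: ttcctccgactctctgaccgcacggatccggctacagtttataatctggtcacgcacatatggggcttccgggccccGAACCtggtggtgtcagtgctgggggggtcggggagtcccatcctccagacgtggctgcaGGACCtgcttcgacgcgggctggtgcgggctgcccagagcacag
KCNMA1: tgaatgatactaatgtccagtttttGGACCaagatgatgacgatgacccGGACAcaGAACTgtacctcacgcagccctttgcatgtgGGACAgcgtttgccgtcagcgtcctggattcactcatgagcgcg
CACNA2D2: tgccaatcagcAAACTgaagg
CACNA1G: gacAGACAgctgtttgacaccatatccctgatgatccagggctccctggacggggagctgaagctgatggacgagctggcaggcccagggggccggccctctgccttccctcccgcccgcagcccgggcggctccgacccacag
KCNH1: gacgaggtggtggccattctag
Of these 10 stretches, those of CACNA1B and KCNH1 held none of the 12 forms, and that of KCNT2 held 6. Among windows of the same length on the same transcript, the share that holds at least 1 form ranged from 24.4% (KCNH1) to 98.7% (KCNT2), and was 89.1% for CACNA1B. The matches are descriptions and mark no methylated base.

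Channel genes carried fewer m6A peaks in Fts than in Fs. They held 78, 95 and 99 peaks in Fs1 to Fs3 and 68, 65 and 61 in Fts1 to Fts3. These groups did not overlap, and the means were 90.7 ± 11.2 and 64.7 ± 3.51 (SD, n = 3), a ratio of 0.713. The number of channel genes with a peak was 55, 63 and 66 in Fs and 48, 49 and 39 in Fts, again without overlap. Over all mRNA genes the order of the means was the other way. Peaks on mRNA exons numbered 8120 ± 1129 in Fs and 9844 ± 1190 in Fts, and these groups overlapped. Per 1000 peaks on mRNA exons, channel genes held 11.2 ± 0.362 in Fs and 6.67 ± 1.20 in Fts, also without overlap. Among peaks with a score of at least 50, channel genes held 23, 27 and 19 in Fs and 14, 17 and 12 in Fts, while all genes held 1328 ± 86.2 and 2339 ± 552. With 3 samples against 3, a two-sided exact permutation test cannot give a p under 0.1, so no such test of a single comparison here can pass 0.05.

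**Figure D1:**
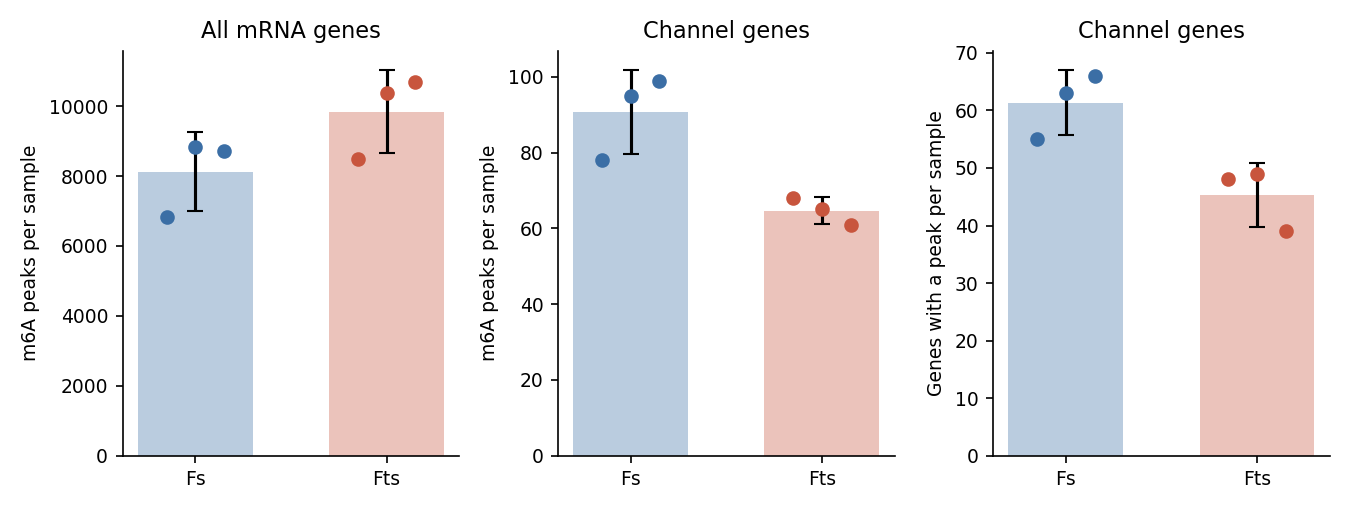
Peaks per sample on all mRNA genes (left), on the 140 channel genes (middle) and the number of channel genes with a peak (right), for fresh (Fs) and frozen-thawed (Fts) sperm. Points are samples, bars are means and error bars are SD (n = 3). Channel gene peaks reach from 78 to 99 in Fs but from 61 to 68 in Fts, whereas the totals over all genes overlap.

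Markers of other cells that semen can hold were counted beside these results. The study treated the sperm pellets with the detergent Triton X-100 before RNA extraction to remove somatic cells. Of 5 epithelial genes, 4 had a peak, with 1, 1 and 2 peaks in Fs and 6, 7 and 6 in Fts. KRT8, a keratin of simple epithelia, had 0 peaks in each Fs sample and 3, 4 and 2 in Fts, whereas EPCAM had none in any sample. Of 5 leukocyte genes, 2 had a peak, with 0, 2 and 1 peaks in Fs and 0, 1 and 2 in Fts, and CD14, CSF1R and ITGB2 were at 0 throughout. Of 10 sperm genes, 5 had a peak, with 3, 2 and 4 peaks in Fs and 4, 6 and 4 in Fts. PRM1, TNP1, ODF1, AKAP4 and TSSK2 had none in any sample, and the lists cannot say whether their RNA was there without a called peak. The part of other cells in the channel results was not tested.

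In all, 92 of the 140 genes (65.7%) had a peak in at least 1 sample, against 56.6% of coding genes of the annotation. A peak in all 6 samples was found for 18 channel genes (12.9%), against 7.65% of all genes. Channel genes were long, with a median mRNA of 4779.5 bases against 2698 for all genes. Members with a peak had a median of 14.5 exons and 5503.5 bases, and the 48 without had 3 exons and 3979.5 bases. Most of the 48 were potassium channel genes, including KCNA1, KCNA2, KCNA3, KCNA5, KCNA6, KCNA7 and KCNA10 of the Shaker family, KCNH2, the cardiac hERG channel, and KCNJ10 and KCNJ11 among the inward rectifiers. CACNA2D4, TRPC6, TRPM2, TRPM5 and TRPV1, the capsaicin receptor, had no peak either.

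With peaks of any score counted, Fs and Fts stood apart in the pore-forming subunits of calcium channels and in TRP channels. The 10 calcium pores held 16, 19 and 21 peaks in Fs and 11, 7 and 8 in Fts, and the means of 18.7 and 8.67 gave a ratio of 0.464. The 21 TRP genes held 16, 17 and 16 peaks in Fs and 12, 10 and 13 in Fts, a ratio of 0.714. In both groups of genes the Fs samples lay above all Fts samples. Among peaks with a score of at least 50, this held for the calcium pores only. The TRP genes overlapped there, so their difference rests on weaker peaks. The other groups had lower means in Fts too, but their samples met or overlapped. The 8 genes of alpha2delta and beta subunits held 7, 6 and 10 against 6, 5 and 8 peaks, and the 9 sodium channel pores held 11, 14 and 13 against 13, 10 and 8. The 39 voltage-gated potassium pores, of which 20 had a peak, held 13, 18 and 20 against 12, 16 and 13. Among the smaller potassium groups, the 16 auxiliary subunit genes held 7, 6 and 9 against 7, 7 and 4 peaks. The 7 calcium- or sodium-activated pores held 3, 6 and 5 against 2, 4 and 4. The 15 inward rectifiers (KCNJ) held 3, 6 and 3 against 2, 3 and 3, and the 15 tandem-pore leak channels (KCNK) held 2, 3 and 2 against 3, 3 and 0. Per kilobase of mRNA, calcium pores had 0.205 peaks in Fs and 0.0951 in Fts, sodium pores 0.164 and 0.134, and inward rectifiers 0.0437 and 0.0291.

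**Figure D2:**
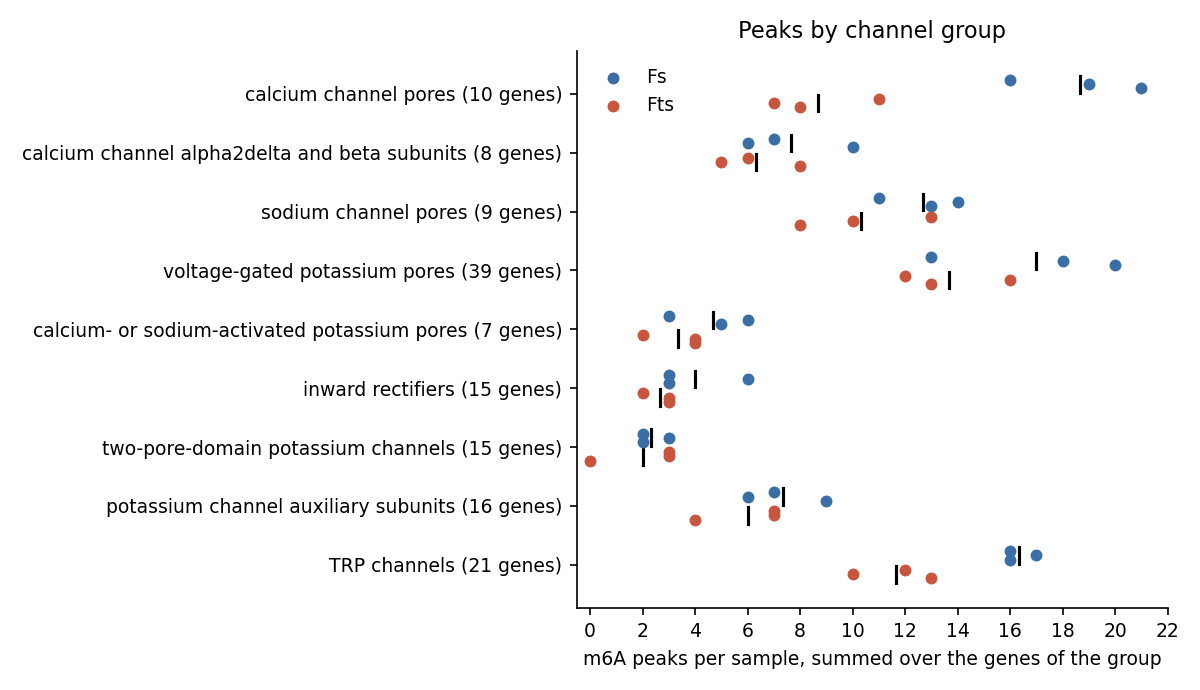
Peaks per sample summed over the genes of each channel group, on the horizontal axis, in fresh (Fs, blue) and frozen-thawed (Fts, red) sperm. Points are samples and black bars are means (n = 3). Peaks of any score are counted. Calcium channel pores (16 to 21 against 7 to 11) and TRP channels (16 to 17 against 10 to 13) are the groups without overlap.

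Gene by gene, a call was made when every sample of one group had more peaks than every sample of the other. Of the 92 genes with a peak, 11 (12.0%) were higher in Fs by this rule, against 5.36% of the 11705 genes with a peak in the whole annotation. Among them were CACNA1B, CACNA1F, CACNA1G, KCNAB2, KCNQ3, KCNS3, TRPC5, TRPC7, TRPM4 and TRPM8. Only TRPV6 (1.09%) was higher in Fts by the rule, against 8.98% of all genes. The mean number of peaks was higher in Fs for 59 channel genes (64.1%), higher in Fts for 24 (26.1%) and equal for 9. Over all genes these shares were 43.0% and 44.6%. Part of the calls rests on weak peaks. When the same number of highest scoring peaks was used per sample, 7 of 86 genes (8.14%) were higher in Fs, near the background of 7.29%, and 0 were higher in Fts, against 8.25%. With a score of at least 50, 3 of 34 genes (8.82%) were higher in Fs, against 4.66%, and 1 (KCNH1) in Fts, against 12.3%. Of the 11 genes called higher in Fs, 5 kept the call with equal numbers of peaks. Only 1 of them, CACNA1G, kept it with a score of at least 50. TRPV6 kept its call in neither setting. The count of 11 became 17 of 90 without Fs1, against 10.6% of all genes, and leaving out a sample cannot lower it.

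**Figure D3:**
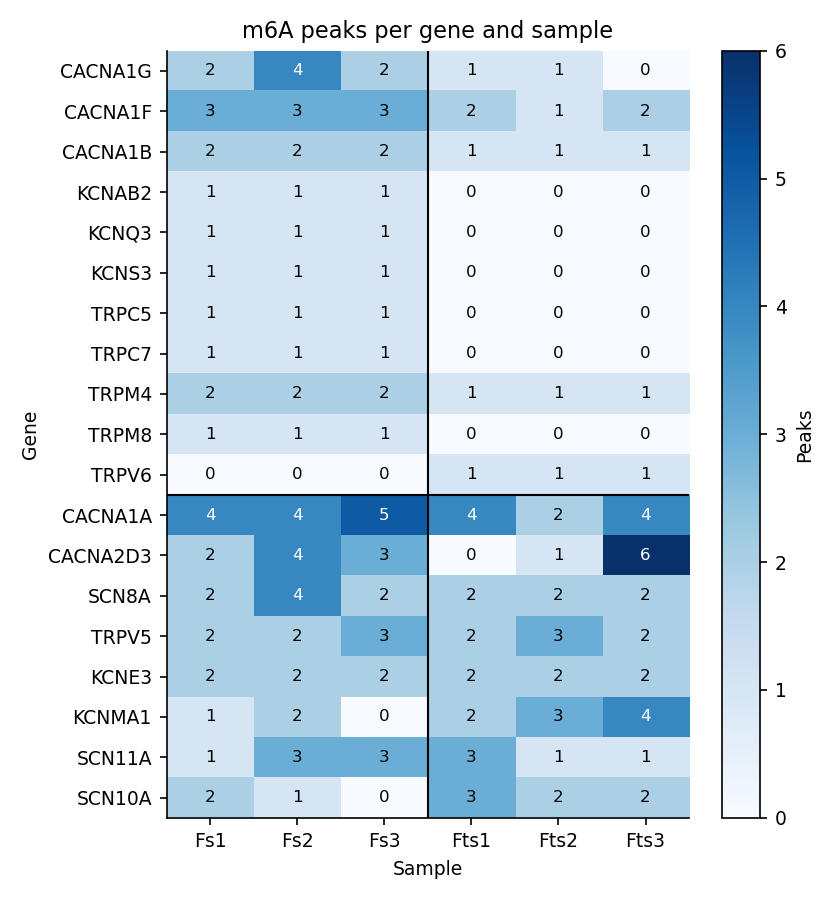
Number of m6A peaks per gene (rows) and sample (columns). Above the line stand 11 of the 12 genes whose groups did not overlap, and below it 8 other genes with many peaks. CACNA1G had 2, 4 and 2 peaks in Fs and 1, 1 and 0 in Fts, whereas CACNA2D3 reached 6 in Fts3 alone.

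Among calcium channel pores, strong peaks with lower scores in Fts were found in 3 genes. CACNA1A, the pore of P/Q-type channels of nerve terminals, held most peaks of any channel gene, with 4, 4 and 5 in Fs and 4, 2 and 4 in Fts. Its strongest peak, printed above, had scores of 141, 106 and 255 in Fs and 28.5, 29.6 and 29.4 in Fts, a mean ratio of 5.74 without overlap. CACNA1B, the N-type pore, had 2 peaks in each Fs sample and 1 in each Fts sample. The shared peak in exon 5 had scores of 364, 368 and 221 in Fs and 45.4, 68.0 and 33.4 in Fts (ratio of means 6.50), and the one found in Fs alone, in exon 19, was weak at 6.83, 12.8 and 3.02. CACNA1G, a low-voltage T-type pore, had 2, 4 and 2 peaks in Fs and 1, 1 and 0 in Fts. Its peak in exon 34 had scores of 122, 156 and 111 in Fs, 15.7 and 12.6 in Fts1 and Fts2, and was not called in Fts3. CACNA1F, an L-type pore best known from photoreceptors, had 3 peaks in each Fs sample and 2, 1 and 2 in Fts. The scores of its peak in exon 16 overlapped, at 181, 152 and 181 in Fs and 20.2, 84.7 and 218 in Fts. CACNA1I, the T-type pore of thalamic neurons, went the other way in score. Its peak in exon 10 had 345, 259 and 139 in Fs and 517, 529 and 696 in Fts, and the mean was 2.35 times higher in Fts. The remaining pores had few and mostly weaker peaks. CACNA1C, the main L-type pore of heart and smooth muscle, had 2, 1 and 3 peaks in Fs and 1, 1 and 0 in Fts, all with scores up to 31.3. CACNA1D, another L-type pore, had 0, 2 and 2 against 1, 0 and 0. Its peak in exon 3 had scores of 26.8 in Fs2, 88.2 in Fs3 and 3.98 in Fts1. CACNA1E, CACNA1H and CACNA1S had 3, 1 and 2 peaks over the 6 samples, all of them in Fs.

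Auxiliary calcium channel subunits did not separate as a group, but held the highest single score. In CACNA2D2, a membrane-anchored subunit that raises the number of pores at the surface, a 21-base exon was covered whole by the peak. Its scores were 600, 1034 and 678 in Fs and 291 in Fts1. In Fts2 and Fts3 the peak lay in the exon before it, with scores of 186 and 133. Each sample thus had 1 peak in the gene, and the highest score per gene was higher in every Fs sample. CACNB3, a cytosolic beta subunit, had scores of 168, 234 and 157 in Fs, 31.2 and 37.9 in Fts1 and Fts2, and no peak in Fts3. The longest coding transcript lacks the exon with this peak. CACNA2D3 was uneven, with 2, 4 and 3 peaks in Fs and 0, 1 and 6 in Fts. CACNA2D1 had more peaks on average in Fts, with 1, 0 and 1 in Fs and 4, 2 and 1 in Fts, none with a score above 16.3.

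Sodium channel pores overlapped in their summed peaks. SCN8A, a neuronal pore of the axon initial segment, had a peak in exon 12 with scores above those of Fts in every Fs sample, at 151, 137 and 200 in Fs and 83.7, 112 and 17.3 in Fts. SCN7A, an atypical member that senses extracellular sodium, had a peak in the 5′ untranslated region in all 6 samples, at 114, 260 and 355 in Fs and 168, 174 and 185 in Fts. These scores overlapped. SCN10A, a pore of pain-sensing neurons, had a strong peak in exon 13 in every Fts sample, with scores of 154, 147 and 120, and in 1 Fs sample, with 152. Its peak number was 2, 1 and 0 in Fs and 3, 2 and 2 in Fts. SCN3A, a pore of the developing brain, had 0, 1 and 4 peaks in Fs and 1, 0 and 0 in Fts.

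Of the 39 voltage-gated potassium pores, 19 had no peak, and over all mRNA genes 43.4% had none. KCNQ3, a subunit of the M-current that damps repeated firing, had 1 peak in each Fs sample, with scores of 24.8, 3.63 and 34.9, and 0 in Fts. KCNS3, which forms no channel alone and modifies other potassium pores, had 1 peak in each Fs sample and 0 in Fts, all weak at 6.33, 7 and 3.51. KCNH1, the ether-à-go-go channel, ran against the rest. The peak in exon 9 had a score of 6.43 in Fs2, was not called in Fs1 and Fs3, and had 162, 106 and 81.1 in Fts. KCNA4, an A-type channel, had a peak in its first exon in all 6 samples, with overlapping scores.

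Among the other potassium channel genes, KCNMA1 leaned towards Fts. It encodes the large-conductance calcium-activated channel and had 1, 2 and 0 peaks in Fs and 2, 3 and 4 in Fts. Exon 27 carried a peak in 3 Fts samples, with scores of 18.4, 18.2 and 37.9, and in 0 Fs samples. KCNAB1, KCNAB3, KCNIP1, KCNIP4, KCNJ9, KCNK4, KCNK6 and KCNK9 had higher mean peak numbers in Fts too, with scores up to 30.7. In KCNT2, a sodium-activated channel, exon 17 carried a peak in 3 Fs samples, at 11.6, 32.2 and 21.2, and in 0 Fts samples. The 4 small- and intermediate-conductance genes KCNN1, KCNN2, KCNN3 and KCNN4 had peaks in Fs samples only, all at scores up to 12.6. KCNAB2, a cytosolic subunit of Shaker channels, had 1 peak in each Fs sample, with scores of 47.7, 25.5 and 15.7, and 0 in Fts. KCNE3, a small single-pass subunit, had 2 peaks in every sample. KCNJ14, an inward rectifier, had highest scores of 136, 20.7 and 61.0 in Fs and 15.6, 7.87 and no peak in Fts. KCNK2, a stretch-sensitive leak channel, had a region of 29 bases with scores of 104, 17.8 and 27.8 in Fs and no peak there in Fts. Another of its peaks, at the start codon, had a score of 23.8 in Fs2 and 48.9 in Fts1.

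TRP channels held 4 of the 11 genes higher in Fs and the 1 gene higher in Fts. TRPM4, a calcium-activated channel for monovalent cations, had 2 peaks in each Fs sample and 1 in each Fts sample. Its peak in exon 4 had scores of 26.6, 3.59 and 20.9 in Fs and was in 0 Fts samples, and a second region upstream had 41.5, 138 and 103 in Fs and 6.99 and 4.83 in Fts1 and Fts2. TRPC5 and TRPC7, which open downstream of receptors coupled to phospholipase C, each had 1 peak in every Fs sample and 0 in Fts. The scores were 17.7, 22.8 and 5.93 for TRPC5 and 10.5, 11.6 and 10.7 for TRPC7. TRPM8, the cold and menthol receptor, had 1 peak per Fs sample and 0 in Fts too, but not at 1 place. The peak of Fs1 lay in exon 12 with a score of 4.03, and those of Fs2 and Fs3 in exon 14 with 4.86 and 17.4. TRPV6, a calcium-selective channel of epithelia, had 1 peak in exon 12 in every Fts sample, at 8.66, 3.52 and 3.81, and 0 in Fs. All peaks of TRPC7 and TRPV6, like those of KCNS3, had a p above 0.05. TRPV5, the close relative of TRPV6, had 2, 2 and 3 peaks in Fs and 2, 3 and 2 in Fts, with scores up to 389. TRPV4, an osmotic and warmth sensor, had its peak in exon 2 at 116, 582 and 357 in Fs and 255, 252 and 281 in Fts, so the groups overlapped. TRPA1, the irritant receptor, had a region at its annotated end that touched its last exon in Fs2 (score 149) and Fts2 (7.78) only. The peaks of the other 4 samples there started beyond the end of the gene. TRPM7, a channel fused to a kinase and involved in magnesium uptake, had highest scores of 5.91, 12.6 and 4.04 in Fs and 36.6, 102 and 146 in Fts.

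Merging the peaks of the 6 samples gave 204 regions on channel genes, of 26095 on all mRNA genes. More Fs than Fts samples had a peak in 115 of them (56.4%) and more Fts samples in 59 (28.9%). Over all genes the shares were 40.3% and 50.2%. A peak in 3 Fs and 0 Fts samples was found in 12 regions (5.88%), against 3.63% of all regions. These lay in KCNK2, KCNAB2, KCNT2, TRPM4, CACNA1F, TRPC5, CACNA1C, TRPA1, TRPC7, CACNA1A, CACNA1B and KCNS3. Without Fs1 the count was 20 of 194, against 7.87%. The opposite pattern, 3 Fts and 0 Fs, was found in 3 regions (1.47%), among them 1 each in KCNMA1 and TRPV6, against 6.82% of all regions. Without Fts1 it was 9 (4.64%), against 13.1%, and without Fts3 it was 8 (4.21%), against 11.4%. Without Fs1, Fs2 or Fts2 it was 5 each, against 7.78%, 8.23% and 10.3%.

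Regions with a peak in all 6 samples numbered 14 (6.86%), against 3.31% of all regions, and 22 (11.6%) without Fts3, against 4.61%. One of the 14 is the region at the end of TRPA1, where 4 of the 6 peaks lay off the gene. When only peaks that themselves touched mRNA exons were merged, an alternative added after the data were seen, 13 regions (6.37%) remained, against 3.22%. In 3 of the 13 (23.1%), those of CACNA1A, CACNA1B and SCN8A, every Fs score was above every Fts score, against 22.7% of such regions over all genes. In 2 (15.4%), of which 1 lay in CACNA1I, every Fts score was above every Fs score, against 13.3%. Both shares were near the background. For the highest score per gene, 18 of 92 genes (19.6%) were higher in Fs, against 10.7%, and 7 (7.61%) in Fts, against 13.2%.

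**Figure D4:**
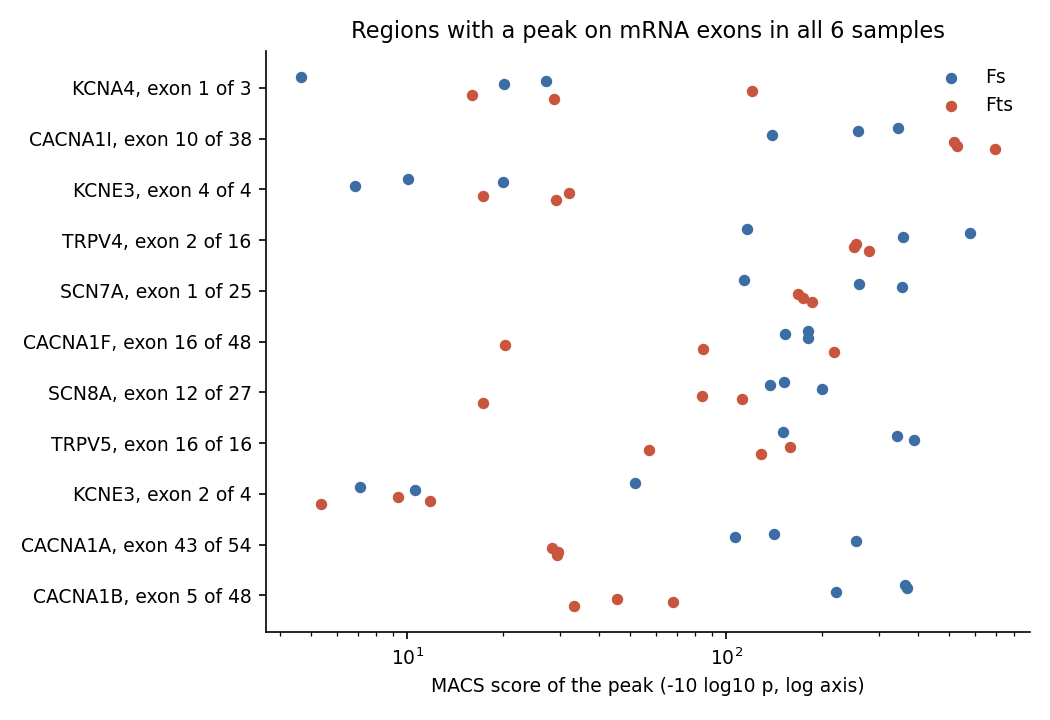
MACS scores, on a log axis, of 11 of the 13 channel gene regions with a peak on mRNA exons in all 6 samples, in fresh (Fs, blue) and frozen-thawed (Fts, red) sperm. Each point is 1 sample, and rows are ordered by the ratio of the Fts mean to the Fs mean. CACNA1I stands apart with higher Fts scores, and CACNA1B, CACNA1A and SCN8A with higher Fs scores.

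Along the transcript, channel gene peaks lay mostly in the coding sequence. Shares are of the peaks whose midpoint fell on the longest coding transcript, 68, 84 and 88 in Fs and 60, 55 and 57 in Fts, and leave out 10, 11 and 11 peaks in Fs and 8, 10 and 4 in Fts that fell outside it. The share of the coding sequence was 78.2% ± 2.39 in Fs and 79.0% ± 2.33 in Fts (SD, n = 3), so the groups overlapped. Over all genes it was 72.2% and 76.4%, so a high coding share was not particular to channel genes. Coding sequence away from both codons made up 47.4% of the length of the channel transcripts. The 3′ untranslated region held 6.33% ± 0.897 of peaks in Fs and 6.94% ± 1.44 in Fts, though it took 35.1% of the length. For all genes these shares of peaks were 8.84% and 7.13%. The start codon class held 2.42% and 4.07% of channel gene peaks, below the 9.30% and 8.06% over all genes, but these are 1 to 3 peaks per sample. Many peaks ended at exon borders. Between 35.4% and 42.1% of channel gene peaks covered a whole exon, and between 72.7% and 80.3% touched an exon edge, as the 21-base exon of CACNA2D2 shows. These shares were not counted over all genes, and whether they come from the way the lists were made was not tested. GGACT was present in 22.1%, 19.0% and 20.5% of peaks in Fs and in 30.0%, 23.6% and 26.3% in Fts, against means of 20.4% and 21.3% of windows of equal length on the same transcripts. Relative to the windows the groups overlapped, with differences of -1.35, 1.55 and 0.0891 points in Fs and 7.86, 0.163 and 8.10 points in Fts. The search used the transcript strand only, since m6A lies on the RNA. Any of the 12 forms was present in 79.4% of peaks and 80.8% of windows, a mean difference of -1.36 points.

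**Figure D5:**
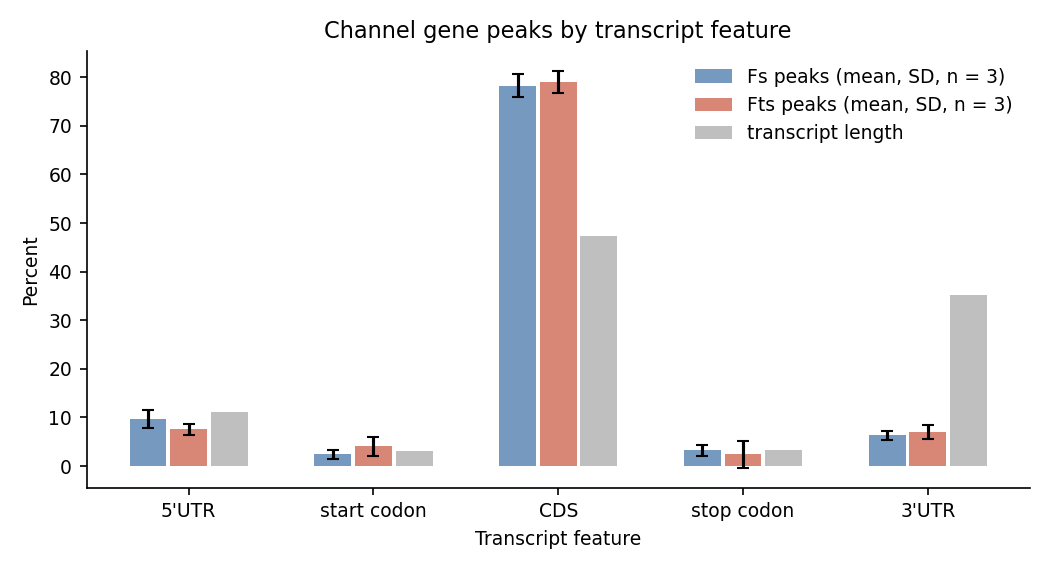
Share by transcript feature of the channel gene peaks placed on the longest coding transcript, in fresh (Fs, blue) and frozen-thawed (Fts, red) sperm, as means with SD (n = 3), beside the share of each feature in transcript length (grey). The coding sequence holds 78.2% and 79.0% of peaks on 47.4% of the length, and the 3′ untranslated region 6.33% and 6.94% on 35.1%.

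Other ion channel genes were counted for comparison. Of 42 further channel genes, such as ryanodine and PIEZO channels, 40 were in the annotation and 28 had a peak. They held 29, 46 and 40 peaks in Fs and 29, 23 and 30 in Fts. Of the 28, 5 were higher in every Fs sample, MCOLN1, MCOLN2, RYR3 and PIEZO2 among them, against 5.36% of all genes with a peak. In every Fts sample 0 were higher, against 8.98%. A lean towards Fs was thus not particular to the members. PIEZO2, a touch-sensitive channel, had 3, 5 and 2 peaks in Fs and 0 in each Fts sample. Of 13 genes for channels and transporters known from sperm, among them the CatSper calcium channel, KCNU1 and HVCN1, 10 had a peak. Their sums were 8, 12 and 9 in Fs and 4, 6 and 9 in Fts. CATSPER3, a CatSper pore subunit, was the 1 gene of these 10 with more peaks in every Fs sample, against 5.36% of all genes. It had 1 peak in each Fs and 0 in each Fts sample.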

How the data were processed

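The authors trimmed reads with cutadapt 1.9.3, aligned them to susScr11 (Sscrofa11.1) with HISAT2 and ran MACS on every IP sample with its own input as control, without pooling, keeping peaks on mRNAs. The MACS version is not given in the sources used here. The deposited value of a peak is the score the authors took from MACS, -10 times log10 p. A further list of sites held the authors' own comparison of the groups and was not used.

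All 233 sequence names of the peak lists were found in the assembly, with 0 peaks beyond an end. Peaks were given to a gene from 1 base of overlap with its exons in RefSeq mRNAs (Annotation Release 106) of the same strand. A peak that overlapped exons of several genes counted for each, which among members happened for KCNAB3 only. Transcript features were read at peak midpoints along the longest coding transcript, with 100 bases to each side for the start and stop codon classes. Exons are numbered on that transcript from its 5′ end, and a region outside it is one on exons of other transcripts. Regions are peaks of the 6 samples merged from 1 base of overlap and kept where they touch a gene's exons, so a region can hold peaks that lie off the gene. Peak numbers of the groups of 3 were called different when they did not overlap, and no p-value is given, since an exact permutation test of 3 against 3 cannot go below 0.1.

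The members and gene lists were chosen with earlier results of these data known. Named genes were all members called in either direction, those with most peaks (such as CACNA1A with 23 and CACNA2D3 with 16, and CACNA1F, TRPV5 and SCN8A, each with 14), the 5 with the highest single score, and regions in 1 group only or of highest score in all samples. Other genes, and the printed stretches of CACNA1B, CACNA1A, CACNA2D2, CACNA1G and KCNH1, were chosen after their values were seen, to describe each channel group. KCNK2 and KCNAB2 regions were not printed, as they lie outside the longest coding transcript. Code ran in Python 3.11.15 with numpy 2.4.6 and pysam 0.24.0 and was tested on simulated peak lists. No 2 lists shared more than 17 identical peaks. Some of the genes that the rules select are counted but not reported here.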

Additional observations from a re-analysis of the deposited data

How the results depend on the processing

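Lower numbers of channel gene peaks in Fts held in every alternative tried. The difference in peaks per sample, Fts minus Fs, was -26 and lay between -32.3 and -21.8 when 1 sample was left out, and that in genes with a peak was -16 (range -19.2 to -12.8). A score of at least 20 gave -10.7 peaks and -7.33 genes. Here 5 of 51 genes were higher in Fs, against 4.54% of all genes, and 2 in Fts, against 11.3%. Regions in Fs only, in Fts only and in all samples numbered 4, 1 and 8 of 73. These were 5.48%, 1.37% and 11.0%, against 3.50%, 8.51% and 3.10% of all regions. A score of at least 50 gave -8.67 peaks and -7 genes. Here 3 of 34 genes (8.82%) were higher in Fs, against 4.66%, and 1 in Fts, against 12.3%. The 3 region counts were 5, 1 and 5 of 43 (11.6%, 2.33% and 11.6%), against 3.60%, 9.55% and 2.60%. With equal numbers of peaks, 7 of 86 genes (8.14%) were higher in Fs, against 7.29%, and 0 in Fts, against 8.25%. Of 165 regions, 11 (6.67%) were in Fs only, against 4.62%, and 1 (0.606%) in Fts only, against 6.60%. The first alternatives use fewer peaks by construction, and the cause was otherwise not tested. Leaving out 1 sample gave 12 to 17 genes higher in Fs, against 6.84% to 10.6% of all genes. It gave 2 to 3 in Fts, against 10.4% to 14.3%. These gene counts cannot fall below those of all 6 samples. Regions in Fs only numbered 13 to 20 (6.84% to 10.3%), against 4.55% to 7.87% of all regions. Those in Fts only numbered 4 to 9 (2.26% to 4.64%), against 7.78% to 13.1%. Regions in all samples numbered 14 to 22 (7.22% to 11.6%), against 4.09% to 4.61%. With only peaks on mRNA exons merged, added after the data were seen, the 3 region counts were 12, 3 and 13. These were 5.88%, 1.47% and 6.37% of channel gene regions, against 3.64%, 6.79% and 3.22% of all regions.

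The difference in coding share was 0.790 points. It reversed to -0.0200 points with a score of at least 50, and ranged from -0.0908 to 2.15 when 1 sample was left out, being -0.0908 without Fs1 and -0.0501 without Fts3. The excess of GGACT over windows was 2.74 points (range 1.66 to 3.55), was 11.9 with a score of at least 50, and reversed to -1.36 with all 12 forms. Of 156 values for named genes, 128 kept their call, 28 lost it and 0 reversed. Values without 1 sample and in the replicate block could not lose a call, since groups that do not overlap stay apart there. Of the 11 genes higher in Fs, 3 kept their call with a score of at least 20. With a score of at least 50 it was 1, and with equal numbers of peaks 5. TRPV6 lost its call in each of these settings.

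The labels do not say whether samples of equal number come from the same boar. The study's methods state a paired design for comparing Fs with Fts, without tying it to these numbers. Correlations of the deviations of samples of equal number were 0.0103, -0.0143 and 0.0129. Between samples of different number they lay from -0.0348 to 0.0250. With the replicate block (the same direction in 3 pairs of equal number), 13 genes were higher in Fs, against 6.86% of all genes, and 3 in Fts (KCNMA1, SCN10A and TRPV6), against 10.8%. The smallest p that 3 pairs allow is 0.25. Read numbers of the libraries were not used, and the part of depth in the peak calls was not tested.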
